A study of Mus musculus with 10 samples.

Results

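The genes described here are S100a8, S100a9, Retnlg, Mmp8, Mmp9, Stfa2l1, Csta3, Wfdc21, Camp and Ltf, which are 10 of the 22180 genes that had a probe set with exactly 1 gene symbol. They are genes of neutrophils and of the stefin family that were read out in isolates of splenic dendritic cells (DCs). They were picked by symbol with their levels in these arrays already known, so their values are given as a description. For a gene with several probe sets the one with the highest mean over the 10 arrays was to be used, but each of the 10 genes had 1 probe set. Each array measured RNA from CD11c+ cells taken from mouse spleen with magnetic beads. The groups were C3ar1-/-C5ar1-/- mice (DKO, without either complement anaphylatoxin receptor) after CpG (n = 3), DKO mice without stimulation (n = 2), wild-type (WT) mice after CpG (n = 3) and WT mice without stimulation (n = 2). CpG is unmethylated DNA that Toll-like receptor 9 recognises. The mice had received 100 µg of it, or vehicle, 4 h before the spleens were taken. The labels give no strain, age or sex. Levels are log2 intensities on Affymetrix Mouse Gene 2.0 ST arrays, so a difference of 1 is a 2-fold difference, and levels of different genes are not set against each other.

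Neutrophils are short-lived granulocytes that leave the bone marrow filled with granules and are recruited quickly to inflamed tissue. Genes of granule proteins such as Camp and Ltf are transcribed mainly in precursors in the marrow, whereas S100a8, S100a9, Retnlg and Mmp8 mark later stages. Stefins are cytosolic inhibitors of cysteine proteases such as the cathepsins, and several mouse stefin A genes are abundant in neutrophils. CD11c beads select DCs but also retain some macrophages and other cells, so an isolate is a mixture. In such bulk RNA, fewer cells of a type and less RNA per cell cannot be told apart.

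The isolates carried the defining genes of DCs in every array. Itgax, which encodes CD11c, measured 10.72 to 11.89, Flt3 9.79 to 10.59, Zbtb46 7.37 to 8.18 and H2-Ab1 13.40 to 13.68, against array medians of 5.50 to 5.56. The targeted receptors were lower in every DKO array than in any WT array. C3ar1 was between 5.27 and 5.64 in DKO isolates and between 5.80 and 6.59 in WT isolates, and C5ar1 between 4.42 and 4.99 in DKO isolates and between 5.51 and 7.32 in WT isolates. The labels do not say where the probes lie relative to the deleted parts, so this is no check of the genotype. The arrays also differed in ways the groups do not explain. Of the 5 DKO arrays, 3 (DKO CpG 1, DKO CpG 2 and DKO unstimulated 1) had signal from the Y chromosome (Eif2s3y, Kdm5d and Uty averaged at least 7.33, against at most 3.68 in the other 7 arrays) and Xist of at most 4.91, against at least 10.4. DKO CpG 3, DKO unstimulated 2 and WT CpG 3 have sample titles numbered 20 and over, a second title series whose meaning the labels do not give. The labels mention a first batch without assigning any sample to it.

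S100a8 and S100a9 encode the subunits of calprotectin, the abundant calcium-binding protein of neutrophil cytosol, and both were lower in DKO isolates. S100a8 measured 9.10, 8.27 and 4.82 in DKO isolates after CpG and 6.60 and 4.40 in DKO isolates without stimulation. It measured 10.63, 10.90 and 9.03 in WT isolates after CpG and 9.20 and 9.82 in WT isolates without stimulation. The 5 WT arrays lay within 1.87 of each other, whereas the DKO arrays spread over 4.70, and DKO CpG 1 overlapped the lowest WT array. In DKO CpG 3 and DKO unstimulated 2, S100a8 was under the array median, so the size of its genotype difference is uncertain. S100a9 measured 8.71, 8.23 and 5.82 in DKO isolates after CpG and 6.67 and 6.21 in DKO isolates without stimulation. It measured 10.18, 10.35 and 8.73 in WT isolates after CpG and 8.77 and 9.28 in WT isolates without stimulation. Every DKO array was below every WT array for S100a9, but the gap between the highest DKO array and the lowest WT array was only 0.02. DKO minus WT, averaged over both stimulations, was -3.40 ± 0.77 for S100a8 and -2.37 ± 0.52 for S100a9 (standard error of the limma fit, here and below). In DKO isolates, CpG minus unstimulated was 1.89 ± 1.09 for S100a8 and 1.14 ± 0.73 for S100a9, and in WT isolates 0.68 ± 1.09 and 0.73 ± 0.73. Neither gene was called in this fit in any of the 6 comparisons (limma adjusted p under 0.05). With the title series as a term in the fit, the WT values were 1.56 for S100a8 and 1.28 for S100a9, and both were called higher. In the fit with that term, 24.8% of all genes were called for CpG in WT isolates in either direction. That fit gave 1.45 and 0.87 in DKO isolates. Without the 3 arrays with titles numbered 20 and over, the DKO values were 2.08 and 1.80 and the WT values 1.26 and 1.24. Without the 3 arrays with Y-linked signal, the DKO values were 0.42 for S100a8 and -0.39 for S100a9. The former fit has 1 unstimulated DKO array and the latter 1 array in each DKO group. The sizes of these CpG differences, and the sign for S100a9 in DKO isolates, thus depended on the arrays used.

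The pair lies side by side on chromosome 3 with no protein-coding gene between them. Because both varied together over the arrays, the 300 bases around their annotated starts are shown (RefSeq, build GRCm38.p6). Capitals mark matches to TATAAA on the gene's strand and, on both strands, to GAGGAA, the core of a PU.1 site, and to TTGCNNAA, a C/EBP-like motif. In the S100a8 window 1 GAGGAA match adjoins TATAAA without overlap.
S100a8, chr3:90668821-90669120, plus strand: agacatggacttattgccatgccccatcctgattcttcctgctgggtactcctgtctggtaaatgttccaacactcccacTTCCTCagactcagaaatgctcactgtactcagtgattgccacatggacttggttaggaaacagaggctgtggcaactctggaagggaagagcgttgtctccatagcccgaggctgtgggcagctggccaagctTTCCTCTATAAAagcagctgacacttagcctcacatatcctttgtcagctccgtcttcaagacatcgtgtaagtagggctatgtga
S100a9, chr3:90695672-90695971, minus strand: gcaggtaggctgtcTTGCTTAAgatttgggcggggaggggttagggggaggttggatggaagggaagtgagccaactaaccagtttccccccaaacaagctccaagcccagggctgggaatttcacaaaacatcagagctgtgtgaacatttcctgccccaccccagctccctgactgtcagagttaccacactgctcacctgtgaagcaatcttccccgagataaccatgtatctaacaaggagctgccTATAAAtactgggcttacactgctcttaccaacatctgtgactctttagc
TATAAA stood in both windows and in 8.3% of 32841 such windows of all genes. S100a8 had 2 matches to GAGGAA, which 28.3% of all windows hold, and S100a9 had 1 match to TTGCNNAA, which 10.8% of all windows hold. Of the 10 genes, 8 had a window in the table (all but Mmp9 and Wfdc21). TTGCNNAA was in 5 of these 8 and GAGGAA in 4. A match describes the letters only.

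Retnlg, a secreted resistin-like protein of bone marrow and neutrophils, was lower in every DKO array than in any WT array, by at least 0.46. It measured 6.64, 5.93 and 4.41 in DKO isolates after CpG and 4.61 and 4.17 in DKO isolates without stimulation. In WT isolates it measured 8.91, 9.90 and 7.53 after CpG and 7.10 and 7.60 without stimulation. DKO CpG 1 came closest to the WT arrays and DKO unstimulated 2 was lowest. DKO minus WT was -3.12 ± 0.61 after CpG and -2.96 ± 0.74 without stimulation. Mmp8, the neutrophil collagenase, measured 6.95, 6.13 and 4.93 in DKO isolates after CpG and 4.67 and 4.78 in DKO isolates without stimulation. It measured 8.94, 9.84 and 7.12 in WT isolates after CpG and 6.44 and 6.91 in WT isolates without stimulation. For each stimulation the genotypes did not overlap, and all CpG arrays of a genotype were above its unstimulated arrays. DKO minus WT was -2.63 ± 0.62 after CpG and -1.95 ± 0.76 without stimulation, and CpG minus unstimulated was 1.28 ± 0.70 in DKO isolates and 1.96 ± 0.70 in WT isolates. Both Retnlg and Mmp8 were under the array median in DKO CpG 3 and in both unstimulated DKO arrays, so the sizes of their genotype differences are uncertain.

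**Figure D1:**
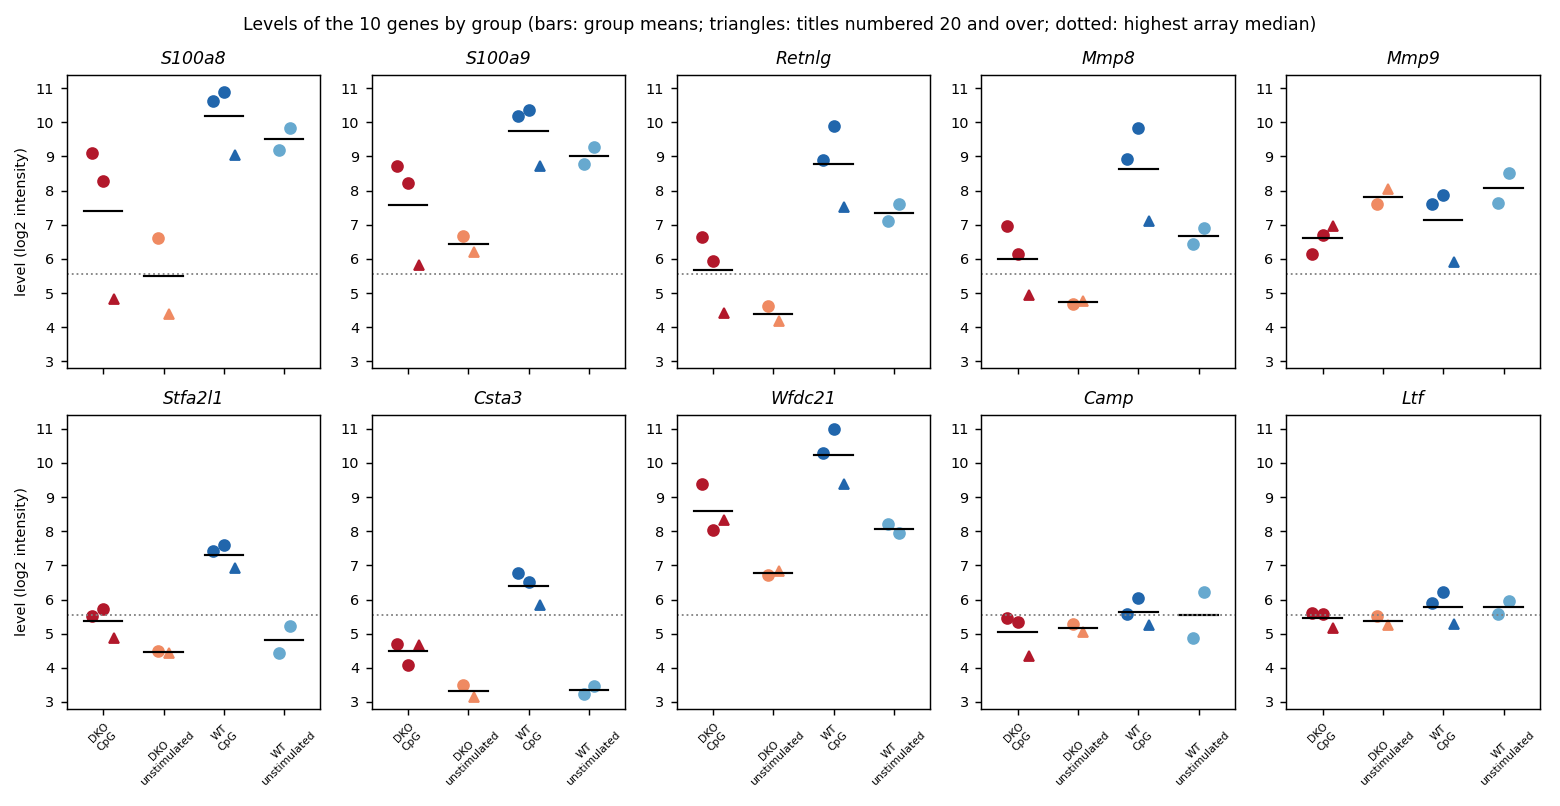
Level of each of the 10 genes (y axis, log2 intensity) in the 4 groups (x axis), 1 point per array, with bars at the group means, triangles for sample titles numbered 20 and over and a dotted line at the highest array median, 5.56. Retnlg and S100a9 were lower in every DKO array than in any WT array, Stfa2l1 and Csta3 were above the line mainly or only in WT CpG arrays, and Camp and Ltf stayed near it in every group.

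Stfa2l1 and Csta3 are stefin A-like genes of one cluster on chromosome 16, and they had a pattern of their own: low without stimulation in both genotypes, and high after CpG mainly in WT isolates. Stfa2l1 measured 5.53, 5.71 and 4.87 in DKO isolates after CpG and 4.48 and 4.43 in DKO isolates without stimulation. In WT isolates it measured 7.43, 7.60 and 6.92 after CpG and 4.42 and 5.23 without stimulation. The 3 WT CpG arrays stood above the other 7 arrays by at least 1.21. Csta3 measured 4.70, 4.07 and 4.68 in DKO isolates after CpG and 3.49 and 3.16 in DKO isolates without stimulation. It measured 6.79, 6.52 and 5.85 in WT isolates after CpG and 3.24 and 3.47 in WT isolates without stimulation. All 5 DKO arrays of Csta3 were below their array's median, as were both WT arrays without stimulation, and no detection call was available for these levels. Csta3 entered the fit only through the 3 WT CpG arrays, and Stfa2l1 through these and DKO CpG 2.

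CpG minus unstimulated was 0.91 ± 0.30 in DKO isolates and 2.49 ± 0.30 in WT isolates for Stfa2l1. For Csta3 it was 1.16 ± 0.27 in DKO isolates and 3.03 ± 0.27 in WT isolates. All DKO arrays of Csta3 lay under the array median, and with values floored there its DKO value was -0.00. The sizes of its CpG difference in DKO isolates and of the difference of its CpG effects are therefore uncertain. After CpG, DKO minus WT was -1.95 ± 0.26 for Stfa2l1 and -1.90 ± 0.24 for Csta3, and without stimulation -0.37 ± 0.32 and -0.03 ± 0.30. Without stimulation all arrays of both genotypes were below the array median for both genes, so these values cannot show whether the genotypes differed there. The CpG effect in DKO isolates minus that in WT isolates was -1.57 ± 0.42 for Stfa2l1 and -1.87 ± 0.38 for Csta3, and neither passed the threshold over all genes. Of all 13371 genes tested, 1 (0.00748%) passed it.

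Both stefins lie in a run of 11 protein-coding genes that starts at Csta1 and ends at Stfa2, with 1 protein-coding gene, Cstdc4, between them. Of the 11, 10 had a probe set with 1 symbol and only 3 passed the filter on low values, Stfa2l1, Csta3 and Stfa1. Stfa1 measured 5.51, 4.85 and 4.78 in DKO isolates after CpG and 5.08 and 4.60 without stimulation, and in WT isolates 6.77, 6.65 and 4.57 after CpG and 5.45 and 5.25 without stimulation. WT CpG 3 therefore had the lowest Stfa1 level of all 10 arrays, whereas its Stfa2l1 and Csta3 levels were above all non-WT-CpG arrays. Genes of this cluster are close copies, and how far their probes respond to each other's RNA was not tested. The windows around the starts of Stfa2l1 and Csta3 are shown because the genes lie in one cluster and varied together (same source, build and capitals as for S100a8).
Stfa2l1, chr16:36156561-36156860, plus strand: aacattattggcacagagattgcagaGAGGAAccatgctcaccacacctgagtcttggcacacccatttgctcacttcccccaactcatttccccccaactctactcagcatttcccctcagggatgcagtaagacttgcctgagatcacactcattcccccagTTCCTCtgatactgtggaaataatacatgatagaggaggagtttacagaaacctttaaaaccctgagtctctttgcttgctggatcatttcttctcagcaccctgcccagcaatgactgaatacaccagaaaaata
Csta3, chr16:36210153-36210452, plus strand: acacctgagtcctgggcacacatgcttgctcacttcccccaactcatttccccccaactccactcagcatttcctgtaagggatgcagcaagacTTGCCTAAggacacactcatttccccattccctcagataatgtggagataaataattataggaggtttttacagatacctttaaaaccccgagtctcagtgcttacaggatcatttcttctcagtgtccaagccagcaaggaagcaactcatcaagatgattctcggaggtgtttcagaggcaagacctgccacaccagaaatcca
In a local alignment the windows matched at 210 of 251 aligned bases (83.7%, with 9 gap bases). Neither held TATAAA. Stfa2l1 had 2 matches to GAGGAA and no match to TTGCNNAA, and Csta3 had 1 match to TTGCNNAA and none to GAGGAA.

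Wfdc21, a small secreted protein with a whey acidic protein domain, was lower in DKO isolates at each stimulation and rose with CpG in both genotypes. Unlike the stefins, it was above the array median in all 10 arrays. It measured 9.37, 8.03 and 8.34 in DKO isolates after CpG and 6.71 and 6.84 in DKO isolates without stimulation. It measured 10.29, 10.99 and 9.39 in WT isolates after CpG and 8.22 and 7.94 in WT isolates without stimulation. Every CpG array was above the unstimulated arrays of its genotype, and every DKO array was below the WT arrays of the same stimulation, after CpG by as little as 0.02. CpG minus unstimulated was 1.81 ± 0.44 in DKO isolates and 2.14 ± 0.44 in WT isolates, with a difference of -0.33 ± 0.62 between them. DKO minus WT was -1.64 ± 0.39 after CpG and -1.31 ± 0.48 without stimulation.

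Mmp9, gelatinase B, which is stored in neutrophil granules and is also made by macrophages and DCs, did not follow Mmp8. It measured 6.14, 6.71 and 6.97 in DKO isolates after CpG and 7.60 and 8.04 in DKO isolates without stimulation. In WT isolates it measured 7.61, 7.87 and 5.90 after CpG and 7.63 and 8.51 without stimulation. The genotypes overlapped, and all DKO CpG arrays were below both DKO arrays without stimulation. CpG minus unstimulated was -1.21 ± 0.51 in DKO isolates and -0.94 ± 0.51 in WT isolates, and DKO minus WT averaged over stimulation was -0.38 ± 0.36.

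Camp, the precursor of the antimicrobial peptide cathelicidin, and Ltf, the iron-binding granule protein lactoferrin, were near the array medians in every group. Camp measured 5.45, 5.33 and 4.35 in DKO isolates after CpG and 5.27 and 5.05 in DKO isolates without stimulation, against 5.59, 6.04 and 5.26 in WT isolates after CpG and 4.88 and 6.21 in WT isolates without stimulation. Ltf measured 5.60, 5.59 and 5.17 in DKO isolates after CpG and 5.52 and 5.24 in DKO isolates without stimulation, against 5.90, 6.21 and 5.27 in WT isolates after CpG and 5.59 and 5.97 in WT isolates without stimulation. Camp was above the array median in 3 arrays, all WT, and Ltf in 6. The groups overlapped for each comparison of stimulation, and DKO minus WT averaged over stimulation was -0.48 ± 0.29 for Camp and -0.37 ± 0.18 for Ltf.

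Across the 10 genes, the counts at an adjusted p under 0.05 (limma, Benjamini-Hochberg over 13371 genes) are given beside those of all genes, and nothing is read from them because the genes were chosen with these comparisons known. For CpG in DKO isolates 2 of 10 were called higher (Csta3 and Wfdc21), against 4.54% of all genes, and for CpG in WT isolates 3 of 10 (Stfa2l1, Csta3 and Wfdc21), against 8.24%. The Csta3 call in DKO isolates rests on arrays that all lay under the array median. For DKO minus WT after CpG 2 of 10 were called lower (Stfa2l1 and Csta3), against 0.0673%. None of the 10 was called for DKO minus WT without stimulation, where 0.00748% of all genes were called lower, or averaged over stimulation, where 0.0598% of all genes were called lower, and the numbers at an unadjusted p under 0.05 were 5 and 7 of 10, against 4.63% and 11.6% of all genes. All 10 estimates of DKO minus WT were below 0 in each of these 3 comparisons, with medians of -1.92 after CpG, -0.85 without stimulation and -1.32 averaged, while the median of all genes was 0.01 in each. Counted by arrays that did not overlap, CpG arrays were above the unstimulated ones for 4 of the 10 in DKO isolates (15.2% of all genes) and 4 in WT isolates (21.2%), and below them for Mmp9 in DKO isolates (22.5%). DKO arrays were below WT arrays for 6 of the 10 after CpG (7.58% of all genes), 6 without stimulation (15.9%) and 2 over all 5 arrays of each genotype (S100a9 and Retnlg, against 0.389%).

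These counts moved with single arrays. Without WT CpG 3, 5 of the 10 were called lower averaged over stimulation, 4 after CpG, 3 for CpG in DKO isolates and 5 for CpG in WT isolates. Of all 13371 genes, 35, 29, 1278 and 2292 were then called in either direction. For CpG in DKO isolates 5 were called without DKO CpG 3 (1909 of all genes) and none without DKO CpG 1 (735 of all genes). Without DKO CpG 1, 2 were called averaged over stimulation (71 of all genes) and 5 after CpG (267 of all genes). After CpG, none was called without DKO CpG 2, WT CpG 1 or WT CpG 2 (2 of all genes each), and 1 was called without DKO CpG 3 (8 of all genes). Without DKO CpG 3, 1 was called averaged over stimulation (13 of all genes).

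**Figure D2:**
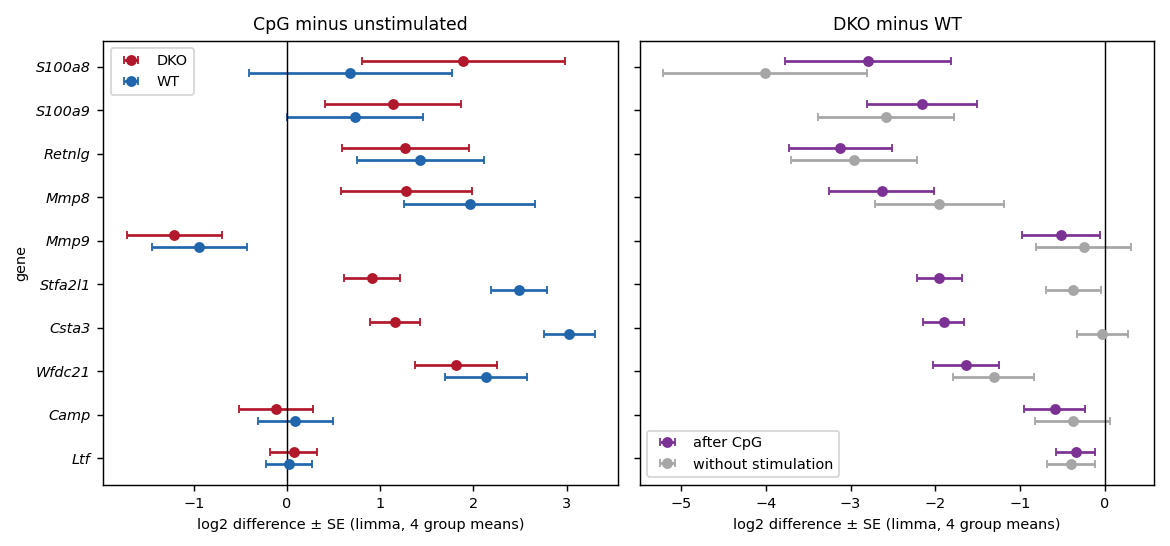
Fitted log2 differences of the 10 genes (y axis) with standard errors as bars, for CpG minus unstimulated in DKO and WT isolates (left) and for DKO minus WT after CpG and without stimulation (right). All 10 genes were below 0 in both genotype comparisons, Stfa2l1 and Csta3 mainly after CpG (-1.95 and -1.90). Mmp9 was the gene with CpG differences furthest below 0 (-1.21 in DKO and -0.94 in WT isolates).

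The title series moved with these levels. In WT CpG, all 10 genes were lowest in the array with a title numbered 20 and over, in DKO CpG 7 were (all but Mmp9, Csta3 and Wfdc21) and in DKO without stimulation 7 were (all but Mmp8, Mmp9 and Wfdc21). After CpG, both DKO arrays with titles below 20 were under both WT arrays for 10 of 10 genes, for 27 of 35 other neutrophil genes and for 19.3% of all genes. DKO CpG 3 was under WT CpG 3, 1 array against 1, for 9 of 10 genes (all but Mmp9), for 24 of 35 other neutrophil genes and for 46.3% of all genes. Without stimulation, DKO unstimulated 1 was under both WT arrays for 7 of 10 genes, for 21 of 35 other neutrophil genes and for 28.2% of all genes. The 3 DKO arrays with titles below 20 are also the 3 with Y-linked signal, which no WT array had, so within that title series genotype and sex cannot be told apart. With the title series as a term in the fit, DKO minus WT averaged over stimulation was -2.74 for S100a8, -1.96 for S100a9, -2.67 for Retnlg and -1.95 for Mmp8. Without the 3 arrays with titles numbered 20 and over, an alternative added after seeing the data, it was -2.49, -2.07, -2.93 and -2.43 for these genes, and 6 of 10 were called lower after CpG, where 0.673% of all genes were called in either direction. That fit has 1 unstimulated DKO array. Without the 3 arrays with Y-linked signal, also added after seeing the data, it was -5.23, -3.37, -3.78 and -2.80, and 6 of 10 were called after CpG, where 5.41% of all genes were. That fit has 1 DKO array after CpG and 1 without stimulation, both with titles numbered 20 and over, and assumes that they vary like the WT groups.

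Genes with the array pattern most like S100a8 and S100a9 were sought among 11928 other protein-coding genes by Pearson's r with the mean of the pair over the 10 arrays. These arrays share genotype and stimulation, so r is a description. The nearest 10 were Clec4d (r = 0.98), Thbs1 (0.97), Csf3r (0.97), Cxcr2 (0.97), Il1f9 (0.97), Hdc (0.96), Acod1 (0.96), Vnn3 (0.95), Hcar2 (0.94) and Atp6v1b2 (0.94). Csf3r and Cxcr2 are the receptors of G-CSF and of CXC chemokines on neutrophils, Clec4d is a C-type lectin of myeloid cells, Il1f9 encodes interleukin-36 gamma and Hdc makes histamine. Clec4d measured 7.84, 7.29 and 4.75 in DKO isolates after CpG and 5.01 and 3.82 without stimulation, and in WT isolates 9.94, 10.15 and 7.82 after CpG and 7.82 and 8.25 without stimulation. Among the 10 genes themselves, Retnlg (0.96) and Mmp8 (0.91) were nearest to the pair, followed by Ltf (0.82), Wfdc21 (0.76), Camp (0.74), Stfa2l1 (0.73) and Csta3 (0.57), and Mmp9 had 0.03. Without the 3 arrays with titles numbered 20 and over, 4 of the nearest 10 (Clec4d, Thbs1, Cxcr2 and Il1f9) stayed in the nearest 10.

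The mean of Stfa2l1 and Csta3 had other neighbours. The nearest 10 were Kcne3 (r = 0.99), Gyg (0.98), Pou2f2 (0.97), Ints12 (0.97), Tmem123 (0.97), Tarm1 (0.97), Ndrg2 (0.96), Tagln2 (0.96), Il23r (0.96) and Cdkn2b (0.96). None of them was among the 10 nearest to S100a8 and S100a9. Tarm1, an activating immunoglobulin-like receptor of myeloid cells, measured 8.16, 7.64 and 8.36 in DKO isolates after CpG and 7.51 and 7.39 without stimulation, and in WT isolates 10.37, 10.35 and 10.25 after CpG and 7.51 and 7.43 without stimulation. Il23r, a chain of the interleukin-23 receptor, measured 5.35, 5.22 and 5.22 in DKO isolates after CpG and 4.14 and 3.88 without stimulation, and in WT isolates 6.40, 6.74 and 6.42 after CpG and 4.41 and 4.08 without stimulation. Both were picked for their likeness to the stefins over these arrays, so having their 3 WT CpG arrays highest follows from the choice. Il23r, like Csta3, entered the fit only through these 3 arrays. Unlike those of S100a8 and S100a9, the 5 DKO arrays of Tarm1 and Il23r split by stimulation and not by title series. Without the 3 arrays with titles numbered 20 and over, 3 of the nearest 10 (Kcne3, Ndrg2 and Cdkn2b) stayed in the nearest 10, and Tarm1 and Il23r did not. Of the 10 genes, Wfdc21 (0.91) and Mmp8 (0.85) were nearest to the stefins.

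**Figure D3:**
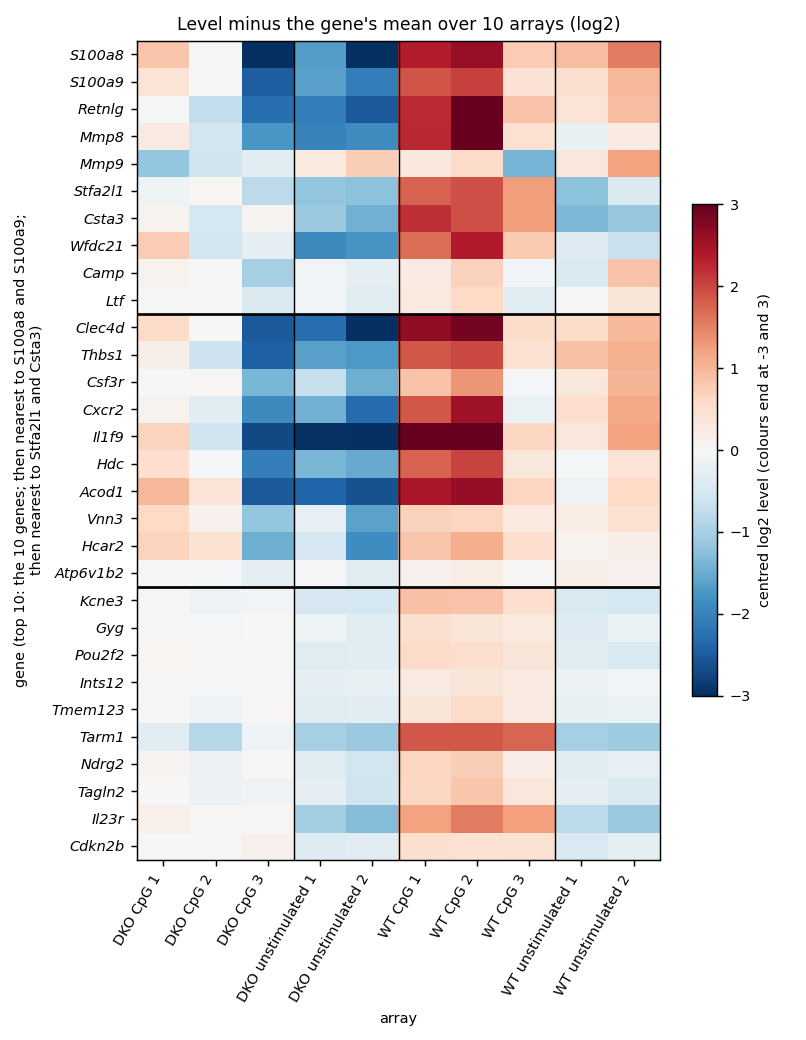
Level minus the gene's own mean over the 10 arrays (colour, log2, ending at -3 and 3) for the 10 genes (top), the 10 genes nearest to S100a8 and S100a9 (middle) and the 10 nearest to Stfa2l1 and Csta3 (bottom), with arrays as columns. Each gene of the middle block was lowest in DKO CpG 3 and the unstimulated DKO arrays and highest in WT CpG 1 or WT CpG 2, and the bottom block was highest in the 3 WT CpG arrays. Both blocks were chosen by likeness over these arrays, so their patterns follow from the choice.

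Other neutrophil genes from 3 lists, none of them among the 10, were tested over all genes. Of 44 listed, 41 had a probe set and 35 passed the filter. Stfa1 and Olfm4 passed it only through WT CpG 1 and WT CpG 2, so their lower DKO level after CpG is partly built in. In DKO isolates 5 of the 35 rose with CpG and 1 fell, against 4.54% and 5.76% of all genes, and the median of the 35 was 0.20 (all genes -0.04). In WT isolates 5 rose and 1 fell, against 8.24% and 13.3% of all genes, and their median was 0.58 (all genes -0.04). For DKO minus WT none passed in limma after CpG, without stimulation or averaged over stimulation, and 16, 8 and 19 had an unadjusted p under 0.05, against 14.3%, 4.63% and 11.6% of all genes. Their medians were -0.83, -0.26 and -0.55 against 0.01 for all genes, and 27, 25 and 26 of the 35 estimates were below 0. Without WT CpG 3, 12 passed for CpG in WT isolates, 4 for DKO minus WT after CpG and 7 averaged over stimulation, with 2292, 29 and 35 of all 13371 genes. Without DKO CpG 1, 3 passed averaged over stimulation (71 of all genes) and 2 after CpG (267 of all genes). For CpG in DKO isolates 13 passed without DKO CpG 3 (1909 of all genes) and 3 without DKO CpG 1 (735 of all genes). Without WT CpG 2 it was 4 for CpG in WT isolates (2254 of all genes). Without all 3 arrays with titles numbered 20 and over, the fit has 1 unstimulated DKO array, and its counts are not set beside these.

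Of 5 primary granule genes tested, which are transcribed early in the marrow, 1 fell with CpG in WT isolates, against 13.3% of all genes. It was Prss57, a granule serine protease (by 0.54 ± 0.15, limma adjusted p = 0.0239). Elane, neutrophil elastase, was at 5.41 to 5.62 in DKO isolates and 5.58 to 5.80 in WT isolates (DKO minus WT averaged over stimulation -0.19 ± 0.08, limma adjusted p = 0.410). Of 10 secondary and tertiary granule genes, 2 rose with CpG in WT isolates, against 8.24% of all genes. Lcn2, the siderophore-binding lipocalin, rose by 2.22 ± 0.61 in WT isolates (limma adjusted p = 0.0247) and its estimate in DKO isolates was 1.39 ± 0.61 (limma adjusted p = 0.186). Mmp25, a membrane-anchored metalloproteinase, rose by 1.29 ± 0.22 in DKO isolates (limma adjusted p = 0.00603) and by 1.86 ± 0.22 in WT isolates (limma adjusted p = 0.000322). Anxa1, an anti-inflammatory annexin, fell by 0.71 ± 0.17 in DKO isolates (limma adjusted p = 0.0270).

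Of 20 genes of the mature neutrophil's surface and cytosol, 4 rose with CpG in DKO isolates and 3 in WT isolates, against 4.54% and 8.24% of all genes. None fell, against 5.76% and 13.3% of all genes. Fpr2, a receptor for formylated peptides, measured 10.29, 9.29 and 8.63 in DKO isolates after CpG and 7.76 and 6.24 without stimulation, and in WT isolates 10.30, 10.63 and 10.33 after CpG and 8.33 and 7.95 without stimulation. It rose by 2.40 ± 0.47 in DKO isolates (limma adjusted p = 0.0117) and by 2.28 ± 0.47 in WT isolates (limma adjusted p = 0.00667). Clec4e, the lectin Mincle, which DCs and macrophages also express, rose by 3.61 ± 0.80 in DKO isolates (limma adjusted p = 0.0189), and its estimate in WT isolates was 1.75 ± 0.80 (limma adjusted p = 0.158). Ifitm1, an interferon-induced membrane protein, rose by 1.27 ± 0.16 in DKO isolates and 1.18 ± 0.16 in WT isolates, and Mxd1, a partner of Max, by 0.65 ± 0.15 and 0.85 ± 0.15. Which cells carried the RNA was not tested. For DKO minus WT, 18 of the 20 estimates were below 0 after CpG (median -1.08) and 17 without stimulation (median -1.04), with none called. At an unadjusted p under 0.05 there were 11 and 7, against 14.3% and 4.63% of all genes. Stfa1, 1 of the 20, passed the filter only through WT CpG 1 and WT CpG 2.

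Other members of the same gene families were tested too. Of 8 other S100 genes tested, none was called in any comparison, and 1 had an unadjusted p under 0.05 (S100a10, for CpG in DKO isolates, where 25% of all genes had). S100a10, a partner of annexin A2, gave -0.50 ± 0.22 for CpG in DKO isolates (limma adjusted p = 0.195) and S100a11 0.35 ± 0.16 for CpG in WT isolates (limma adjusted p = 0.163), the 2 with the smallest p. Of 4 other stefins and cystatins tested, Cst7, cystatin F, rose with CpG in WT isolates by 0.49 ± 0.12 (limma adjusted p = 0.0133), and Cstb, cystatin B, gave 0.57 ± 0.24 there (limma adjusted p = 0.124). Of 5 genes of the resistin and whey acidic protein families, Wfdc17 rose with CpG in WT isolates by 1.09 ± 0.23 (limma adjusted p = 0.00691). Retnla, a resistin-like protein of alternatively activated macrophages, gave 1.66 ± 0.59 for DKO minus WT after CpG (limma adjusted p = 0.240), the opposite sign to Retnlg. Of 10 other matrix metalloproteinases tested, 3 rose with CpG in DKO isolates and the same 3 in WT isolates, against 4.54% and 8.24% of all genes. They were Mmp25, Mmp14 and Mmp19. Mmp14, a membrane-type collagenase activator, rose by 1.66 ± 0.18 in DKO isolates (limma adjusted p = 0.000772) and 2.21 ± 0.18 in WT isolates (limma adjusted p = 7.54e-05). Mmp19 rose by 0.82 ± 0.19 and 0.72 ± 0.19. For DKO minus WT none of them was called, and 4 after CpG and 1 without stimulation had an unadjusted p under 0.05, against 14.3% and 4.63% of all genes.

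Markers of other cells were set beside these levels. The mean level of the 41 other neutrophil genes was 7.25, 6.99 and 6.43 in DKO CpG arrays and 6.53 and 6.28 in DKO arrays without stimulation, against 7.88, 8.10 and 7.06 in WT CpG arrays and 7.06 and 7.14 in WT arrays without stimulation. The mean of 15 splenic macrophage genes was 9.98, 10.02 and 8.21 in DKO CpG arrays and 9.79 and 8.32 in DKO arrays without stimulation, and 9.73 to 10.09 in the 5 WT arrays. DKO CpG 3 and DKO unstimulated 2, the arrays with the lowest S100a8, thus also had the lowest macrophage genes, while WT CpG 3 did not stand apart in them. All 15 macrophage genes were above the array median in every array. The monocyte list was at 8.21 to 8.90 in DKO isolates and 8.49 to 8.92 in WT isolates, and lowest in DKO CpG 3 (8.21) and DKO unstimulated 2 (8.24). The natural killer cell list was also lowest in these arrays (5.61 and 5.41). There the T cell list was at 6.01 and 5.76, and the B cell list, at 7.14 and 7.47, was the highest of each DKO group. Of the mast cell and basophil list 1 of 7 genes, Kit, at 10.26 or more, was above the median in any array. Ly6g, a defining neutrophil marker, was above the array median only in WT CpG 2, at 6.36. The part of the macrophage content, the title series and sex in the genotype differences was not tested.

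**Figure D4:**
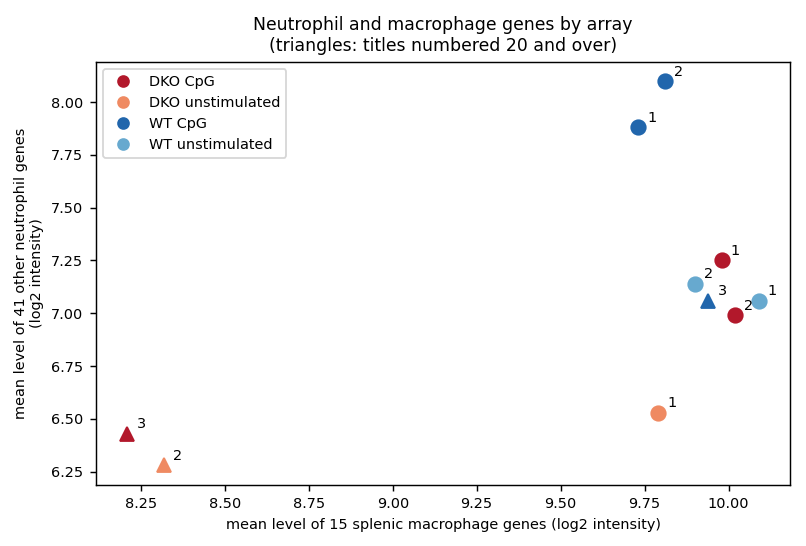
Mean level of 41 other neutrophil genes (y axis) against the mean level of 15 splenic macrophage genes (x axis), both in log2 intensity, 1 point per array with its replicate number, coloured by group, with triangles for sample titles numbered 20 and over. DKO CpG 3 and DKO unstimulated 2 were low on both axes (6.43 and 6.28 for the neutrophil genes), and WT CpG 1 and 2 were highest for the neutrophil genes at a macrophage level shared with the other arrays.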

How the data were processed

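The authors deposited 1 log2 intensity per probe set and array, from RMA run in Expression Console by Affymetrix, as the submitters' processing notes name it. RMA corrects background, normalizes arrays to a common distribution and summarises probes. Of tool versions, the annotation and whether 1 run held all arrays, nothing is given in the sources used here. The table held 41345 probe sets, of which 23521 had 1 symbol, 1814 several and 16010 none. Symbols came from the platform annotation, updated by gene ID from RefSeq (GRCm38.p6, 23328 matched). The probe set with the highest mean stood for a gene, which gave 22180 genes. A gene was tested if above the array median in at least 2 of 10 arrays, which left 13371, among them all 10 described here. No detection calls were used.

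Group means of the 4 groups were estimated from the 10 arrays together in limma 3.58.1 (R 4.3.3, lmFit and eBayes, 6 residual and 4.49 prior degrees of freedom). Tests were two-sided over 6 contrasts, with Benjamini-Hochberg adjustment over genes. The number of arrays limits the precision. The labels do not say whether arrays of a group came from separate mice, so p-values measure the spread between these samples. On simulated data with 200 of 13371 genes changed, the fit recovered 84% of changes of 1 and 98% of changes of 2 on the log2 scale for DKO minus WT after CpG, and 48% and 90% for the difference of the CpG effects. The changed genes were picked at random and the noise was independent between arrays, without title series or sex. These shares therefore do not describe the 10 genes: S100a8 (-2.79 ± 0.98) and Retnlg (-3.12 ± 0.61) were not called after CpG. The genes and lists were chosen with earlier results of these data known. Alternatives were other filters, a floor, quantile normalization, array weights, trend and robust settings, the mean of probe sets, the title series as a block, and leaving out arrays. Named genes were the 10, up to 4 called genes per list (or the 2 with the smallest p), the 10 nearest to each pair, both receptors and 4 DC genes. Some genes of the lists were not analysed here. Figures used matplotlib 3.10.9 in Python 3.11.15.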

Additional observations from a re-analysis of the deposited data

How the results depend on the processing

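The values given are counts of genes at an adjusted p under 0.05. For CpG in WT isolates, 1 member was called with a filter of at least 5 arrays. That filter left 7 of the 10 members and removed Stfa2l1 and Csta3. Both were called in the fit of 13371 genes. In that fit both were also called for DKO minus WT after CpG, and Csta3 for CpG in DKO isolates. With this filter neither Stfa2l1 nor Csta3 could be called in any comparison. Its lower member counts, here and below, therefore cannot show whether these calls would be lost. With the title series as a block 7 of 10 were called, beside 17 of 35 other neutrophil genes and 24.8% of all genes. For CpG in DKO isolates, members numbered 1 with that filter, with values floored at the array median, with array weights and with trend and robust settings, 6 without titles numbered 20 and over and 0 without arrays with Y-linked signal, where other neutrophil genes numbered 17 and 3 and all genes 408 in the last. For DKO minus WT without stimulation, all genes numbered 2 with the block, 23 without titles numbered 20 and over and 250 without Y-linked arrays. Members called were 3 and 2 in those last fits and other neutrophil genes 1, 6 and 4. For DKO minus WT after CpG, all genes numbered 7 with the stricter filter, 125 with array weights, 76 with trend and robust, 296 with the block, 90 without titles numbered 20 and over and 723 without Y-linked arrays. Members called were 0 with the stricter filter, 1 with the floor, 7 with the block and 6 in either added fit, and other neutrophil genes 10, 14 and 12. Averaged over stimulation, all genes numbered 33 with array weights, 20 with trend and robust, 50 with the block, 59 without titles numbered 20 and over and 987 without Y-linked arrays. Members called were 1 with array weights or the mean of probe sets, and 5, 6 and 7 in the last 3 fits, and other neutrophil genes were 1 with array weights and 5, 12 and 13. The single gene called for the difference of the CpG effects was lost (0) with quantile normalization, the floor, the block and without Y-linked arrays, and 2 were called without titles numbered 20 and over. The cause of these changes was not tested. Leaving out each array in turn gave 1277 to 3226 genes for CpG in WT (2 to 5 members, 4 to 12 other neutrophil genes) and 423 to 1909 for CpG in DKO (0 to 5 and 2 to 13). It gave 1 to 2 for DKO minus WT without stimulation (0 and 0), 2 to 267 after CpG (0 to 5 and 0 to 4), 1 to 71 averaged (0 to 5 and 0 to 7) and 0 to 1 for the difference of the CpG effects (0 and 0). With values floored at the array median, CpG in DKO isolates gave -0.00 for Csta3 and for Il23r, whose DKO arrays all lay under the median. Without titles numbered 20 and over, 4 of the 10 genes nearest to S100a8 and S100a9 stayed, and 3 of the 10 nearest to Stfa2l1 and Csta3. The fit without titles numbered 20 and over has 1 unstimulated DKO array and the fit without Y-linked arrays 1 array in each DKO group, which are assumed to vary like the other groups. Quantile normalization moved no level of the 10 genes by more than 0.07. No paired analysis was possible because the labels give no replicate numbers shared between groups. Signal over background limits Csta3, Camp and Ltf, which lay near or under the array medians. Stfa2l1 was above the array median in 4 of the 10 arrays, Retnlg and Mmp8 in 7 and S100a8 in 8. For Retnlg, Mmp8 and S100a8 the arrays under the median were all DKO arrays, so the sizes of their DKO minus WT differences are limited too.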

Other observations

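Some genes of the neutrophil lists, chosen after their values were seen, stood at high levels that did not follow S100a8. Il1r2, the decoy receptor of interleukin-1, measured 10.82 to 10.97 in the 5 DKO arrays and 10.64 to 11.25 in the 5 WT arrays, with an SD of 0.18 over all 10. Lyz2, lysozyme M of myeloid cells, measured 8.62 to 8.92 in DKO arrays and 8.33 to 8.82 in WT arrays. Pglyrp1, a peptidoglycan-binding granule protein, measured 8.89 to 10.45 in DKO arrays and 8.34 to 9.35 in WT arrays, and its highest level was in DKO unstimulated 2, the array with the lowest S100a8.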
